A study of Mus musculus with 13 samples.

Results

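Formins are the proteins that nucleate and elongate unbranched actin filaments. The gene family was followed here in EPLMs, the early progenitors with lymphoid and myeloid potential of mouse bone marrow, in the presence and absence of an OBF1 transgene. The members are Fmn1, Fmn2, Fmnl1, Fmnl2, Fmnl3, Diaph1, Diaph2, Diaph3, Daam1 and Inf2. A probe set, the unit of the array, was taken for a member when the platform annotation gave it that gene symbol and no other. This left 18 probe sets for 9 of the 10 members, among 18193 genes with such a probe set, and Fmnl3 is not analysed here for want of one. The members were put forward with the difference between the genotypes already known, Fmn2 in particular. Their values in this comparison are therefore a description, and no p-value is given for a member.

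EPLMs of 3 WT and 3 BCS mice were compared, with 1 mouse per array. Both genotypes were littermates of B6CF1 x C57BL/6 background and 7 weeks old. BCS mice carry an HA-tagged human OBF1 cDNA, restricted to the nuclear isoform, under an immunoglobulin VH promoter and the Eµ enhancer, and this combination can also be active in T cells. Which of the transgenic lines gave the arrays is not stated in the sources used here. The cells were sorted for B220, c-kit and CD93 and against NK1.1. Of the genes behind these markers, Cd93 and Kit were well above the array median in all 6 mice. Ptprc, the gene behind B220, had a log2 difference of -0.40 (SE 0.07, limma adjusted p = 0.0101). With values raised to the array median, or with eBayes without a trend, Ptprc did not pass (limma adjusted p = 0.0966 and 0.071). Nor did Ptprc pass after adjustment in the test of the paper's methods. Whether its probe set reads B220 alone was not tested. The gene of NK1.1 was not analysed here. Intensities were deposited after GCRMA and are linear, with a median of 20 on each array. An intensity below that median carries little signal over background. Levels of different probe sets are not comparable with each other, since each has its own binding strength. The library of WT mouse 2 stood apart. It held the highest value of the 6 mice for every one of 10 NK cell markers, for 13 of 15 myeloid genes and for 6 of 10 genes of the erythroid and megakaryocyte list, with Pf4 at 2805 against 121 and 80.2 in the other WT mice and Vwf at 600 against 18.6 and 21.4. The 7 large preB arrays of the series were left out, because their values do not follow the probe set names (r = 0.0944 with the EPLM means across 45037 probe sets, against 0.978 across 64 control features).

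A formin acts through its FH2 domain, which forms a ring-shaped dimer and stays on the growing barbed end of the filament. The neighboring FH1 domain is rich in proline and brings in actin bound to profilin. In the Diaphanous, DAAM and FMNL groups the protein is folded onto itself until an activating signal opens it. The Arp2/3 complex, in contrast, builds branched networks and is switched on by proteins of the WASP and WAVE families. In blood cells both kinds of filament serve migration, cell contacts and division.

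OBF1 reaches DNA through Oct1 and Oct2 on the octamer, so the promoters of the formins were searched for the letters ATGCAAAT on both strands. RefSeq windows of 300 bases (250 before and 50 after a transcript start, GRCm38.p6) were on hand for 9 members, 12 windows in all. Fmnl3 was among these members and Diaph1 was not. None of the 12 held the octamer, which 1.74% of the 32851 windows of all genes hold. With 1 mismatch allowed, 1 of the 12 matched, the inner window of Fmn1, and 18.6% of all windows did so. Below are the parts of the windows of Fmn2 and Fmnl2 that precede the annotated gene start. They are the members with the largest rise and with the clearest lower values, and capitals mark CpG dinucleotides.
Fmn2, chr1:174501575-174501751, plus strand: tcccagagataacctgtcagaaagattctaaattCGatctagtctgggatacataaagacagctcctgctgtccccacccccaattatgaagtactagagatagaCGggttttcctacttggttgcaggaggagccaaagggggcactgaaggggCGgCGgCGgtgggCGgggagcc
Fmnl2, chr2:52857618-52857716, plus strand: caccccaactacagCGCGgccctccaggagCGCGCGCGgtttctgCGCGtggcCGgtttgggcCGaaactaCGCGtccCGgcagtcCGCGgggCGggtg
The Fmn2 stretch of 177 bases holds 6 CpG dinucleotides and the Fmnl2 stretch of 99 bases holds 16. Over the whole windows the GC content was 61% for Fmn2 and 78.7% for Fmnl2, with a range of 44% to 79.3% over the 12 windows and a median of 52.7% over all genes. A missing match says only that these letters are not in this window.

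Fmn2 was the member with the largest difference. It is best known for assembling the actin mesh that positions the meiotic spindle in mouse oocytes, where it works with the Spire proteins. On its brightest probe set, 1450064_at, the 3 WT mice had intensities of 18.4, 34.7 and 15.5, and the 3 BCS mice had 1554, 775 and 850. The genotypes were thus far apart, and only WT mouse 2 rose above the array median among the WT animals. The means were 22.9 ± 10.3 (SD, n = 3) and 1060 ± 430 (SD, n = 3), a log2 difference of 5.49 (standard error, SE, 0.35). With values under the array median raised to it, the BCS level was 40.3-fold higher. The second probe set, 1450063_at, gave 16.8, 24.5 and 10.3 in WT and 672, 396 and 513 in BCS mice. Its log2 difference was 4.90 (SE 0.31), and the same treatment of dim values left 23-fold. It was designed on the same transcript record as 1450064_at, so the pair does not give independent readings. The third, 1431725_at, comes from another record and read 14.4, 12.1 and 15.1 in WT and 44.9, 61.2 and 85 in BCS mice. All WT mice lay below the array median there. Its log2 difference was 2.08 (SE 0.23), and raising values under the array median to it leaves a BCS level at least 2.98-fold higher.

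The 3 probe sets of Fmn2 agreed on the genotypes and not on the order of the mice. BCS mouse 1 was the highest of its group on 1450064_at and 1450063_at and the lowest on 1431725_at. Because the WT values sit at background, the size of the difference depends on how background is treated. With 16 in place of 1 added before log2, the differences became 4.75, 4.02 and 1.39.

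**Figure D1:**
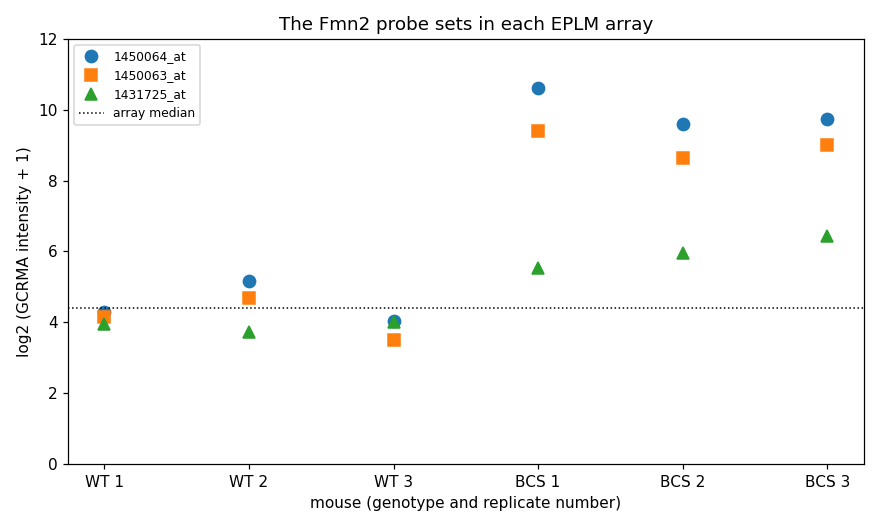
Log2 of the GCRMA intensity plus 1 (vertical axis) of the 3 Fmn2 probe sets in each of the 6 mice (horizontal axis), with the array median as a dotted line. Each symbol is 1 mouse on 1 probe set. All BCS symbols lie above the line, from an intensity of 44.9 to 1554, and BCS mouse 1 is highest on 2 probe sets and lowest on 1431725_at.

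Fmnl2 went the other way. It encodes a Cdc42 effector that elongates filaments at the cell front. Its only probe set, 1428579_at, read 4938, 6328 and 5964 in WT and 3459, 3196 and 3424 in BCS mice. Every BCS mouse lay below every WT mouse, and the BCS mice were close together. The means were 5743 ± 720 (SD, n = 3) and 3359 ± 143 (SD, n = 3), a log2 difference of -0.77 (SE 0.10), which is 41.2% lower. All 6 values are far above the array median, and leaving out any single mouse kept the difference between -0.87 and -0.69. Fmnl1, a formin of blood cells, was below the array median in all 6 mice on its only probe set, with intensities of 11.5, 8.43 and 9.7 in WT and 10.6, 10.7 and 10.7 in BCS mice. Whether Fmnl1 differs between the genotypes was not detectable on this probe set.

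Daam1, which links Wnt signaling to the cytoskeleton, was also lower on its brightest probe set, 1455244_at. The WT mice had 815, 1046 and 713 and the BCS mice had 488, 401 and 612. The genotypes did not overlap, although the spread within each was wider than for Fmnl2. The means were 858 ± 171 (SD, n = 3) and 500 ± 106 (SD, n = 3), a log2 difference of -0.78 (SE 0.20). Its other probe sets, 1458662_at and 1431035_at, were below the array median in all 6 mice and had log2 differences of -0.04 and 0.05.

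The Diaphanous genes showed smaller differences. Diaph1 encodes mDia1. Its brightest probe set, 1454979_at, read 1715, 1892 and 1923 in WT and 1658, 1311 and 1544 in BCS mice. The genotypes did not overlap, though BCS mouse 1 was close to WT mouse 1, and the log2 difference was -0.30 (SE 0.12). Its other probe sets gave -0.22 (SE 0.22) and 0.16 (SE 0.17), with mice of both genotypes intermixed. Diaph2, which encodes mDia3, read 1348, 1364 and 1573 in WT and 1155, 1185 and 1239 in BCS mice on 1442003_at. The BCS mice were again all lower, by a log2 difference of -0.26 (SE 0.12). The second Diaph2 probe set overlapped, with -0.18 (SE 0.21). Diaph3, which encodes mDia2, a formin of the cytokinetic ring, read 408, 275 and 289 in WT and 336, 334 and 251 in BCS mice, a log2 difference of -0.07 (SE 0.21).

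Inf2, a formin that can sever filaments as well as build them, read 941, 1191 and 1134 in WT and 926, 702 and 991 in BCS mice on 1436216_s_at, a probe set whose design can match more than 1 transcript. The log2 difference was -0.33 (SE 0.17). The dimmer 1432184_a_at gave -0.35 (SE 0.20), and the genotypes overlapped on both. Fmn1, the formin of the limb deformity locus, was below the array median in all mice on both probe sets, with log2 differences of 0.12 and 0.03.

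**Figure D2:**
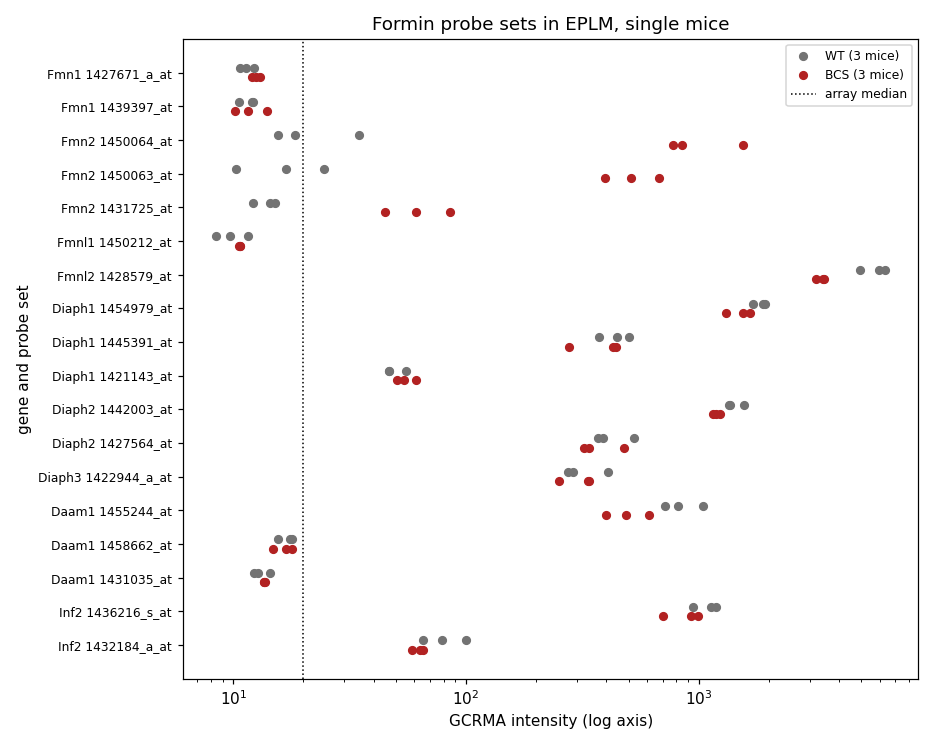
GCRMA intensity (horizontal log axis) of the 18 formin probe sets (vertical axis) in single EPLM arrays, 3 WT mice in gray and 3 BCS mice in red, with the array median as a dotted line. The Fmn2 points of the BCS mice lie far to the right of the WT points, while those of Fmnl2 1428579_at and Daam1 1455244_at lie to the left of the WT points.

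Over the 18 probe sets, 10 were above the array median in all 6 mice, 5 were below it in all 6, and the 3 of Fmn2 were below it in some or all WT mice. The members are thus not equally well measured, and the 5 dim probe sets (intensities from 8.43 to 17.9) say nothing on their genes. The median log2 difference over all 18 was -0.06, beside 0.01 over all probe sets of the array. Probe sets of 1 gene are counted apart in these numbers and share their source. Within a genotype the coefficient of variation of the bright probe sets ran from 6.07% to 22.5% in WT and from 3.55% to 24% in BCS mice.

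With limma over all 45037 probe sets, 3 formin probe sets were higher and 1 was lower at a Benjamini-Hochberg adjusted p under 0.05, namely those of Fmn2 and that of Fmnl2. By the same rule 2.24% of all probe sets were higher and 3.25% lower, and nothing is read from the count, since the members were chosen on this comparison. When group medians also had to be 2-fold apart, the 3 of Fmn2 remained and Fmnl2 did not, beside 0.935% of all probe sets higher and 1.68% lower. With values raised to the array median, 1431725_at no longer passed. Daam1 did not meet the threshold, and did so when dim probe sets were left out or variances were estimated robustly. WT mouse 2 had the highest WT value of Fmn2 on 1450064_at and 1450063_at and the highest of all mice for Fmnl2 and Daam1. Without it the log2 differences were 5.82, 5.18 and 1.99 for the Fmn2 probe sets in the order above, -0.69 for Fmnl2 and -0.63 for Daam1, and the counts of 3 higher and 1 lower were the same. Without overlap between the genotypes, 3 formin probe sets had the BCS mice above and 4 had them below, where 12.6% and 11.2% of all probe sets did so.

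**Figure D3:**
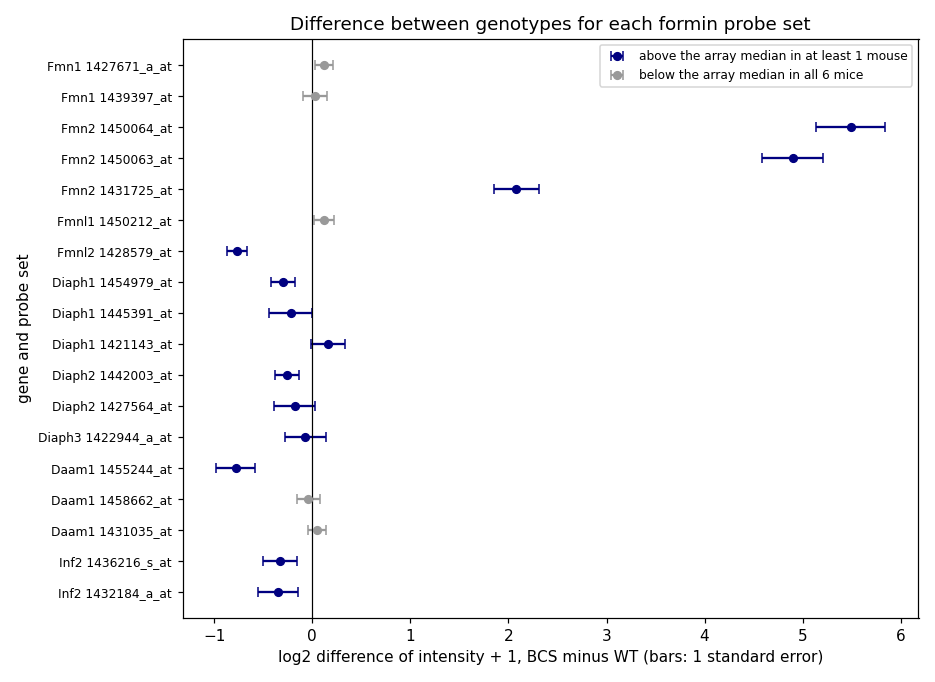
Log2 difference of intensity plus 1, BCS minus WT (horizontal axis), for each formin probe set (vertical axis), with bars of 1 SE from limma, 3 mice per genotype. Gray points mark probe sets below the array median in all 6 mice. Fmn2 stands at 5.49, 4.90 and 2.08, and the lowest points are Daam1 1455244_at at -0.78 and Fmnl2 1428579_at at -0.77.

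The remaining mouse formins, Daam2, Fhod1, Fhod3, Grid2ip and Fhdc1, were tested with the same fit, each by its brightest probe set, since they were not among the members. Fhod3 fell, from intensities of 42.7, 34.3 and 28.5 in WT to 10.7, 11.7 and 13.7 in BCS mice, a log2 difference of -1.46 (SE 0.17, limma adjusted p = 0.00152). Its BCS values lie below the array median, and with values raised to that median the difference was -0.77 and no longer passed. Fhod1, a formin that bundles filaments, went from 90.3, 114 and 91 in WT to 153, 153 and 154 in BCS mice, and did not pass (log2 difference 0.64, SE 0.17, limma adjusted p = 0.0735). It did pass with eBayes without a trend. With the mean of all probe sets per gene, 1 gene of this list passed as higher. Daam2 and Grid2ip were below the array median in all mice. Fhdc1 was near it, with a log2 difference of -0.35 (SE 0.27, limma adjusted p = 0.567).

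In the wider set of actin nucleation genes, 62 measured genes in 6 lists, limma called 1 as risen and 6 as fallen with an adjusted p below 0.05. That is 11.3% of them, beside 7.83% of all genes counted by their brightest probe set (3.15% higher and 4.68% lower). Of the 62 genes, 49 were above the array median in all 6 mice. Among all probe sets that bright, 10% were called. That is a share of probe sets, while the 11.3% is of all 62 genes, the dimmer ones included. The median log2 difference was -0.08, against 0.01 for all genes. Of 6 measured Arp2/3 subunits, Arpc5l rose, with WT mice at 13190 ± 957 (SD, n = 3) against BCS mice at 17560 ± 1637 (SD, n = 3), a log2 difference of 0.41 (SE 0.08, limma adjusted p = 0.0188). The call was lost without WT replicate 1 or 3, without BCS replicate 1 or 3, and in 4 other settings (adjusted p from 0.051 to 0.193 from limma or the methods' t-test). Of 18 WASP and WAVE factors none passed in the main limma fit or in the methods' t-test after adjustment, while 4 in limma and 3 in the methods' t-test had an unadjusted p under 0.05. In other limma settings some did pass. With values raised to the array median 1 was lower, and without BCS replicate 1 also 1 was lower. With the mean of all probe sets per gene, 1 was higher. Of these factors Was, which activates Arp2/3 in blood cells, had a log2 difference of 0.24 in the main fit (SE 0.13, limma adjusted p = 0.392).

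Of the 6 nucleators with WH2 domains, 4 were below the array median in all mice and 1 fell. This was Spire1, whose product works together with Fmn2, and it moved against Fmn2. It read 43.3, 46.3 and 45.6 in WT and 26.6, 31 and 28.8 in BCS mice, a log2 difference of -0.63 (SE 0.15, limma adjusted p = 0.0456). This call was lost when any of the 6 mice was left out, with 16 added before log2, with a replicate block and in the methods' t-test (adjusted p from 0.063 to 0.126). With the mean of all probe sets per gene, none of the 6 nucleators passed as lower. Spire2 was below the array median in all mice.

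Of 17 genes of actin monomers and filament turnover, 2 fell. Pfn2, the profilin that is prominent in neurons, had WT mice at 104 ± 26.2 (SD, n = 3) against BCS mice at 29.4 ± 3.62 (SD, n = 3), a log2 difference of -1.77 (SE 0.21, limma adjusted p = 0.00176). Gsn, which encodes the severing protein gelsolin, read 15180, 19130 and 17860 in WT and 9400, 6895 and 8919 in BCS mice, a log2 difference of -1.05 (SE 0.12, limma adjusted p = 0.00152). The cytoplasmic actins Actb and Actg1 each had a log2 difference of -0.08, and Pfn1, the profilin of blood cells, one of 0.09, and none of these passed (limma adjusted p = 0.572, 0.421 and 0.806). Formins free the coactivators of SRF by using up actin monomers. Of 10 genes of this SRF axis, 2 fell. Vcl, the gene of vinculin, had a log2 difference of -1.01 (SE 0.14, limma adjusted p = 0.00376). Tagln2, a calponin family gene, had one of -0.47 (SE 0.07, limma adjusted p = 0.00579). Without WT mouse 2 the log2 differences were -0.85 for Vcl, -1.58 for Pfn2 and -0.98 for Gsn, and all 3 still passed. Srf had a log2 difference of 0.05 (SE 0.15, limma adjusted p = 0.914). None of the 7 calls in the 6 lists was kept by the methods' t-test after adjustment, where 18 of the 62 genes had an unadjusted p under 0.05. With values raised to the array median, the log2 differences of Gsn, Pfn2 and Vcl stayed at -1.05, -1.77 and -1.01, all their values being above it, while the adjusted p became 0.0583, 0.0539 and 0.0639 in limma.

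**Figure D4:**
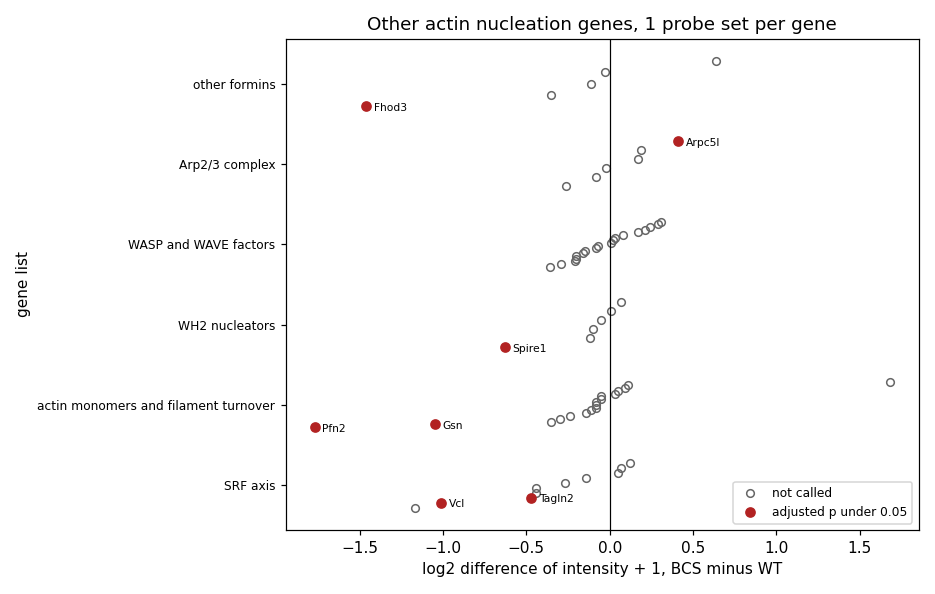
Log2 difference of intensity plus 1, BCS minus WT (horizontal axis), of 62 genes in 6 lists (vertical axis, points spread by rank within a list), 1 probe set per gene. Filled and named points had an adjusted p under 0.05 from limma. Of these, Arpc5l at 0.41 lies to the right of 0 and the other 6, from Pfn2 at -1.77 to Tagln2 at -0.47, lie to the left.

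Some genes that mark other cells differed between the genotypes too. Over all genes, counted by their brightest probe set, limma called 3.15% higher and 4.68% lower. For plasmacytoid dendritic cells, limma called 9 of the 13 markers lower and none higher, among them Klk1 (log2 difference -7.84, or -7.59 with values raised to the array median, limma adjusted p = 1.83e-05) and Pacsin1 (-3.37, limma adjusted p = 0.000153). Their summed intensity ran from 98600 to 111600 in WT and from 48930 to 65520 in BCS mice. Of 10 NK cell markers, 2 fell and none rose (sums of 8315 to 15250 and 1488 to 4309), namely Klrd1 and Klrk1, and of 15 myeloid markers 1 fell, Csf1r (sums of 30320 to 112700 and 11240 to 76280). None of 10 erythroid and megakaryocyte markers passed in limma, 3 had an unadjusted p under 0.05, and the methods' t-test called none (sums of 2667 to 9591 and 2065 to 3017). Of 10 B lineage markers, 6 rose and none fell, with Igll1 and Cd79b foremost (sums of 67250 to 93580 and 123000 to 134900), and of 10 T cell markers 2 rose and 2 fell (sums of 8434 to 9163 and 6736 to 9247), with Lat the largest rise and Cd8a the largest fall. Single probe sets gave unlike shares of these sums. Igll1 gave 10.8% to 23.8% of the B lineage sum and S100a8 28.3% to 38.9% of the myeloid sum. Slc4a1 gave 55.6% to 92% of the erythroid and megakaryocyte sum, and without it the sums were 308 to 4259 in WT and 267 to 272 in BCS mice. Irf8 gave 35.3% to 47.9% of the dendritic cell sum, and the other markers of that list summed to 58610 to 71910 in WT and 25500 to 36250 in BCS mice. Klrd1 gave 30.3% to 83% of the NK cell sum. Without it the sums were 1414 to 7137 in WT and 401 to 3003 in BCS mice, which overlap. Notch1 gave 68.1% to 91.7% of the T cell sum, and without it the sums were 696 to 1511 in WT and 1948 to 2641 in BCS mice. Thy1 led the sums without Notch1, at 401, 898 and 599 in WT and 1917, 1616 and 1438 in BCS mice. By contrast, 7 of the 10 T cell markers had a negative log2 difference. After adjustment the methods' t-test called 2 dendritic cell markers, 1 B lineage marker and 0 of the NK, myeloid and T cell markers. No marker is listed at 0, and Cd14 (myeloid), Hba-a1 (erythroid) and Gata3 (T cell) were below the array median in all mice. In sorted cells measured in bulk, fewer cells of a type and less RNA per cell cannot be told apart. The part of these markers in the Fmn2, Fmnl2 and Daam1 values and in those of the actin lists was not tested.

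The 6-mouse profile of Fmn2 was set beside those of all other genes, as the root mean square distance of log2 profiles centered on their means. The nearest genes were Gm6377 (distance 0.55), Tcf12 on 1446294_at (0.67), Pir (0.69), Spata6 (0.78) and Sytl2 (0.80). The distance between 1450064_at and 1450063_at of Fmn2 was 0.35 and that to 1431725_at was 1.84. Being chosen for their likeness to Fmn2, these genes had to share its difference between the genotypes. Gm6377 had 13.7, 16.2 and 14.1 in WT against 774, 866 and 1122 in BCS mice. Pir, which encodes pirin, had 65, 126 and 81.1 against 1872, 1357 and 1860. Of the 3 coding genes on each side of Fmn2 in the reference order, Rgs7 and Fh1 had a probe set with 1 symbol. Rgs7 was below the array median in all mice. Neither passed, with log2 differences of 0.32 (SE 0.08, limma adjusted p = 0.0611) and -0.08 (SE 0.07, limma adjusted p = 0.634). These neighbors were chosen after the values were seen.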

How the data were processed

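RNA of sorted EPLMs was hybridized to Affymetrix Mouse 430v2 GeneChips, 1 mouse per array. The authors normalized the arrays with GCRMA (version not given in the sources used here) and deposited intensities on a linear scale; the 6 EPLM columns share 1 distribution, so they had been normalized together. The kit is given as 2-cycle in the methods and as 1-cycle in the labels. No genome build is stated for the arrays. Precision is limited by the number of arrays.

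After 1 was added, log2 intensities of the 6 EPLM arrays were compared, BCS minus WT, by limma 3.58.1 under R 4.3.3 (lmFit, then eBayes with a trend) without covariates. Benjamini-Hochberg adjustment ran over 45037 probe sets (64 control features were left out). A gene rose or fell at an adjusted p under 0.05. The platform annotation names 1 gene for 34945 probe sets, several for 932 and none for 9160. Lists used each gene's brightest probe set, and genes without a probe set of 1 symbol were left out. The fit was tested on simulated data. It recovered 90 of 100 simulated log2 changes of 1.5 and 100 of 100 of 3, with 7 false calls. Members and lists were chosen with earlier results of these data known. Genes named from the actin lists are up to 4 called ones with the largest difference, and fixed ones (Spire1, Spire2, Pfn1, Actb, Actg1, Was and Srf). Up to 2 per marker list, the gate genes and the 5 nearest to Fmn2 were also named. Fhod1, Fhdc1, Daam2 and Grid2ip were named to complete the family. A further gene list and 1 sort marker are not reported here. Protein features, which had been planned, were not analysed here. The alternatives tried were another offset, a floor, a filter on dim probe sets, other variance priors and normalizations, the methods' t-test, a replicate block, the mean over probe sets of a gene, 2-fold medians and leaving out each array.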

Additional observations from a re-analysis of the deposited data

How the results depend on the processing

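Over all probe sets, 1007 were higher and 1465 lower, and these counts became 354 and 532 with values raised to the array median, 114 and 153 with the methods' t-test at a Benjamini-Hochberg adjusted p under 0.05, and 421 and 757 when medians also had to be 2-fold apart. At the methods' own threshold, an unadjusted p under 0.01 with medians at least 2-fold apart, that t-test gave 299 higher and 576 lower, and 3 and 0 of the formin probe sets (a setting chosen after seeing the data). Leaving out 1 array gave 517 to 926 higher (lowest without WT replicate 3) and 875 to 1315 lower (lowest without BCS replicate 2); without WT replicate 3, 913 were lower, without BCS replicate 2, 526 were higher, and without BCS replicate 3, 600 were higher. The 3 higher formin probe sets, all of Fmn2, stayed 3 without any 1 array, and the 1 lower one stayed 1. As the members were chosen on this comparison, nothing is read from these formin counts. With values raised to the array median and in the methods' t-test 2 formin probe sets were higher. The lower count became 2 when dim probe sets were left out and 2 with robust variances, in both cases with Daam1 added, and 0 in the methods' t-test, where 3 had an unadjusted p under 0.05. Of the actin list genes, 1 higher and 6 lower became 0 and 3 with values raised to the array median and 0 and 0 in the methods' t-test. The higher count was 2 with dim probe sets left out, 3 with the mean of all probe sets per gene and 0 in the fit with a replicate block. Leaving out 1 array gave 0 to 1 higher (0 without WT replicate 1, WT replicate 3 or BCS replicate 1) and 5 to 6 lower. The cause was not tested. No formin difference that passed in limma changed sign in any setting. The deviations of same-numbered mice correlated with r = -0.0327, 0.0494 and 0.0913, and those of differently numbered mice with r from -0.222 to 0.16. These values cannot tell whether same-numbered mice shared a litter or a sort day. The replicate block left the formin counts at 3 and 1. Quantile normalization changes little by its construction, as the arrays already share 1 distribution. Probe sets below the array median, those of Fmn1 and Fmnl1 among them, limit what can be said of their genes.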

Other observations

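Cap1, a gene of actin monomer recycling, did not pass, and its BCS mice fell apart. Its brightest probe set read 808, 1255 and 749 in the 3 WT mice and 5923, 7503 and 564 in the 3 BCS mice, and its second one 123, 231 and 116 against 405, 581 and 72.6. BCS mouse 3 was thus below all WT mice on both probe sets, and the other 2 BCS mice above them. Without BCS mouse 3, 1 gene of the list of actin monomers and filament turnover passed as higher in limma, where 0 did with all mice. Cap1 was chosen after its values were seen.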
